A study of Mus musculus with 9 samples.

Results

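The genes described here are 52 that carry out the folding, export and degradation of secreted proteins in the endoplasmic reticulum (ER). They were chosen by name, as known ER chaperones, disulfide isomerases, and translocon, ER-associated degradation (ERAD) and COPII genes. The choice was made with earlier results of these data known, so it is not independent of them. All were read in RNAseq of submandibular glands (SMGs) from male mice. They are 52 of 48709 genes counted: 6 chaperones, 8 co-chaperones, 10 isomerases and oxidases, 9 ERAD genes, 12 genes of the translocon and signal peptidase, 4 genes of the COPII coat and 3 stress sensors. The 4 WT mice and 5 DKO mice were adult males on a C57BL/6 background, with 1 library per mouse; their ages in weeks and the founder lines of the sequenced DKO mice are not given in the sources used here. DKO mice carry a frameshift deletion, made by zinc finger nucleases, in exon 1 of *Hs3st3a1* on the same allele as a LacZ cassette that disrupts *Hs3st3b1*, in the germline, and several founder lines were made. Both genes encode enzymes that add 3-*O*-sulfate to heparan sulfate. As a check of the labels, *Hs3st3a1* had 3 to 14 counts per WT library and no counts in DKO (0 in each), and *Hs3st3b1* had 67 to 216 per WT library against 7 to 45 per DKO library.

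Secretory proteins enter the ER through the Sec61 channel, lose their signal peptide, and are folded by chaperones and by isomerases that form and rearrange disulfide bonds. Folded cargo leaves in COPII vesicles, and proteins that fail to fold are pulled back to the cytosol for degradation. Cells that secrete heavily, such as the acinar and granular duct cells of the SMG, carry large amounts of this machinery, and when unfolded protein accumulates, membrane sensors raise its transcription (the unfolded protein response).

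Libraries held 17053747 to 37870519 counts, of which the 52 genes took 0.887% to 1.85%. Levels are given as TMM-normalized CPM, read counts scaled to the library size and corrected for the share taken by a few very abundant genes, and the log2 fold changes are DKO over WT from edgeR. A gene was called at a Benjamini-Hochberg adjusted p under 0.05 in edgeR's quasi-likelihood test over 13842 genes. DESeq2's Wald test, the tool named in the study's methods, was run beside it. Some libraries stood apart. WT replicate 2 was the lowest WT library for 37 of the 51 genes tested (72.5%, against 26.6% of all genes tested) and the highest for 0. DKO replicate 2 was the lowest DKO library for 32 (62.7%, against 17.9% of all genes), and DKO replicates 3 and 5 were the highest for 23 each (45.1%, against 26.5% and 18.6%). DKO replicate 1 stood apart in parotid gland markers, which summed to 8106 CPM there. They summed to 68.5 to 99.5 CPM in the other DKO libraries and to 27.8 to 57.8 CPM in WT.

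Across the whole set, no gene was called by edgeR (0 of 51, against 87 of 13842 genes or 0.629%). At an unadjusted p under 0.05, 12 of the 51 were lower in DKO, where the share of all genes was 7.60%, and 0 were higher, where it was 6.89%. DESeq2 called 4 of the 51 lower in DKO (*Hspa5*, *Hsp90b1*, *Pdia4* and *Pdia5*), against 2.68% of all genes, and 0 higher, against 1.77%. Limma-voom with sample quality weights called 0 (1.07% of all genes). Only *Pdia5* had WT and DKO values that did not overlap (1 of 51, lower in DKO, against 3.51% of all genes). The median log2 fold change of the 51 genes was -0.17, against 0.01 for all genes tested, with 34 genes below 0 (47.5% of all genes were) and 17 above.

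By step of the pathway, every chaperone and every co-chaperone tested had a log2 fold change below 0, with medians of -0.40 (6 genes, -0.80 to -0.18) and -0.41 (8 genes, -0.80 to -0.03). The isomerases and oxidases had a median of -0.17 (10 genes, -0.87 to 0.24; 8 below 0). The ERAD genes were divided, with a median of -0.04 (9 genes, -0.45 to 0.44; 5 below 0). The genes of the translocon and signal peptidase had a median of 0.06 (12 genes, -0.24 to 0.20; 4 below 0), the COPII genes -0.09 (4 genes, -0.21 to 0.10) and the sensors 0.20 (2 genes, 0.10 and 0.31). All 12 genes with an unadjusted p under 0.05 were chaperones (3), co-chaperones (3), isomerases (4) or ERAD genes (2). The difference between subgroups was not tested. Scaling by library size alone, an alternative chosen after seeing the data, moved the median of all genes to -0.28 and turned the medians of the translocon and signal peptidase (-0.24) and of the sensors (-0.09) below 0, both still above that of all genes. Of the 17 genes above 0, 15 then lay below it, all except *Herpud1* and *Eif2ak3*.

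**Figure D1:**
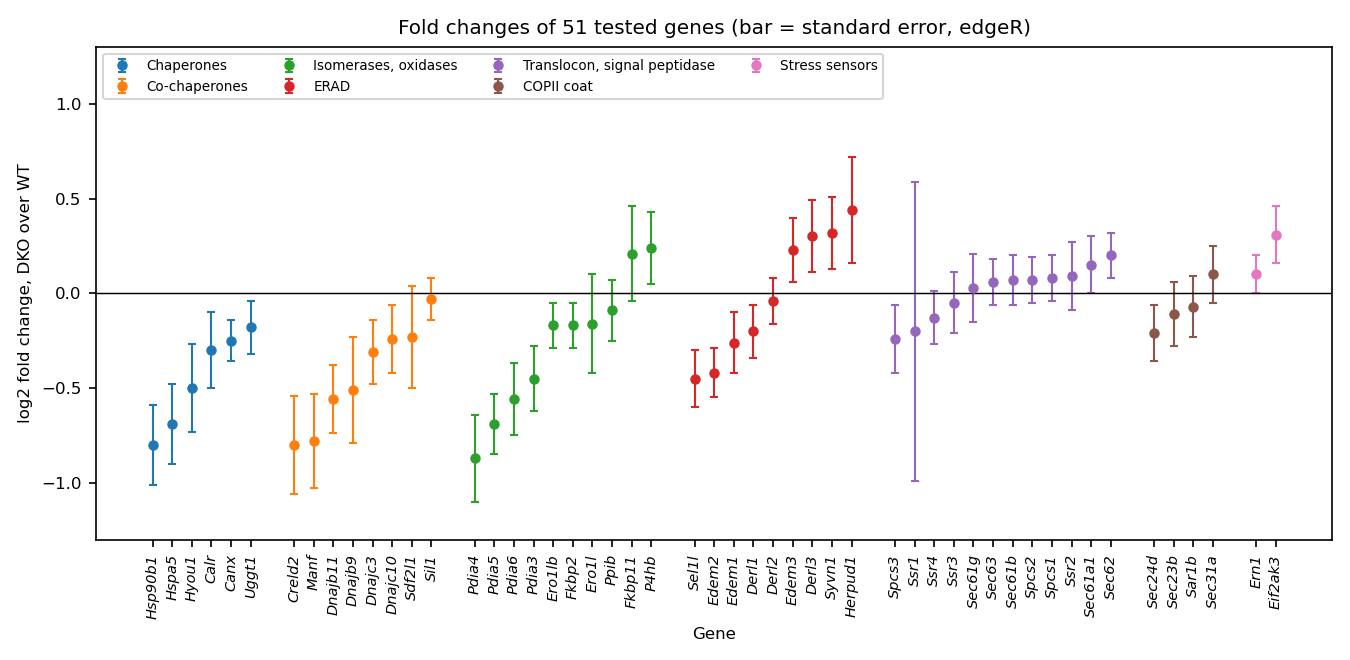
The log2 fold change, DKO over WT, of the 51 genes tested (points) with its standard error (bars) from edgeR, sorted within each of 7 subgroups. All 6 chaperones and all 8 co-chaperones lie below 0, the 12 genes of the translocon and signal peptidase lie between -0.24 and 0.20, and *Ssr1* has the widest bar.

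*Hspa5* encodes BiP, the Hsp70 chaperone of the ER lumen, which binds unfolded chains and holds the stress sensors inactive. It is on chromosome 2 (GRCm38, 34771970 to 34777547, plus strand). Its normalized values were 1531, 682, 1233 and 1003 CPM in WT and 636, 582, 738, 715 and 769.8 CPM in DKO. The DKO libraries lay close together, at 688 ± 77.2 CPM (SD, n = 5), while WT libraries spread over 1112 ± 359 CPM (SD, n = 4), and the groups overlapped only through WT replicate 2. The log2 fold change was -0.69 (standard error 0.21), with an adjusted p of 0.138 in edgeR and 0.0235 in DESeq2. The exact permutation test of genotype labels, two-sided, gave p = 0.0317, and 0.339 after adjustment over all genes; no gene of the 13842 had an adjusted permutation p under 0.05.

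*Hsp90b1* encodes GRP94, the Hsp90 of the ER, and lies on chromosome 10 (86690209 to 86705509, minus strand). Its values were 669, 348, 771 and 464 CPM in WT and 294, 290.3, 309, 357 and 372 CPM in DKO. As for *Hspa5*, 3 WT libraries stood above all 5 DKO libraries and WT replicate 2 fell among them. The difference on the log2 scale was -0.80, with a standard error of 0.21 (adjusted p = 0.0891 in edgeR and 0.00779 in DESeq2; exact permutation p = 0.0238, 0.306 adjusted). Along 632 bases its exons overlap those of other annotated genes, and the libraries do not mark strand, so some of its reads may belong to those genes.

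The other chaperones had values nearer 0. The glycoprotein chaperones calnexin (*Canx*) and calreticulin (*Calr*) had log2 fold changes of -0.25 and -0.30, and *Hyou1*, an Hsp110-type exchange factor for BiP, had -0.50. *Uggt1*, the glucosyltransferase that marks misfolded glycoproteins for another round of calnexin binding, was nearest 0 of the 6. Its values were 47.1, 44.4, 61.8 and 44.7 CPM in WT and 38.4, 36.4, 52.7, 42.8 and 48.5 CPM in DKO, and the log2 fold change was -0.18 (standard error, 0.14, edgeR adjusted p = 0.633). These groups overlapped widely.

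**Figure D2:**
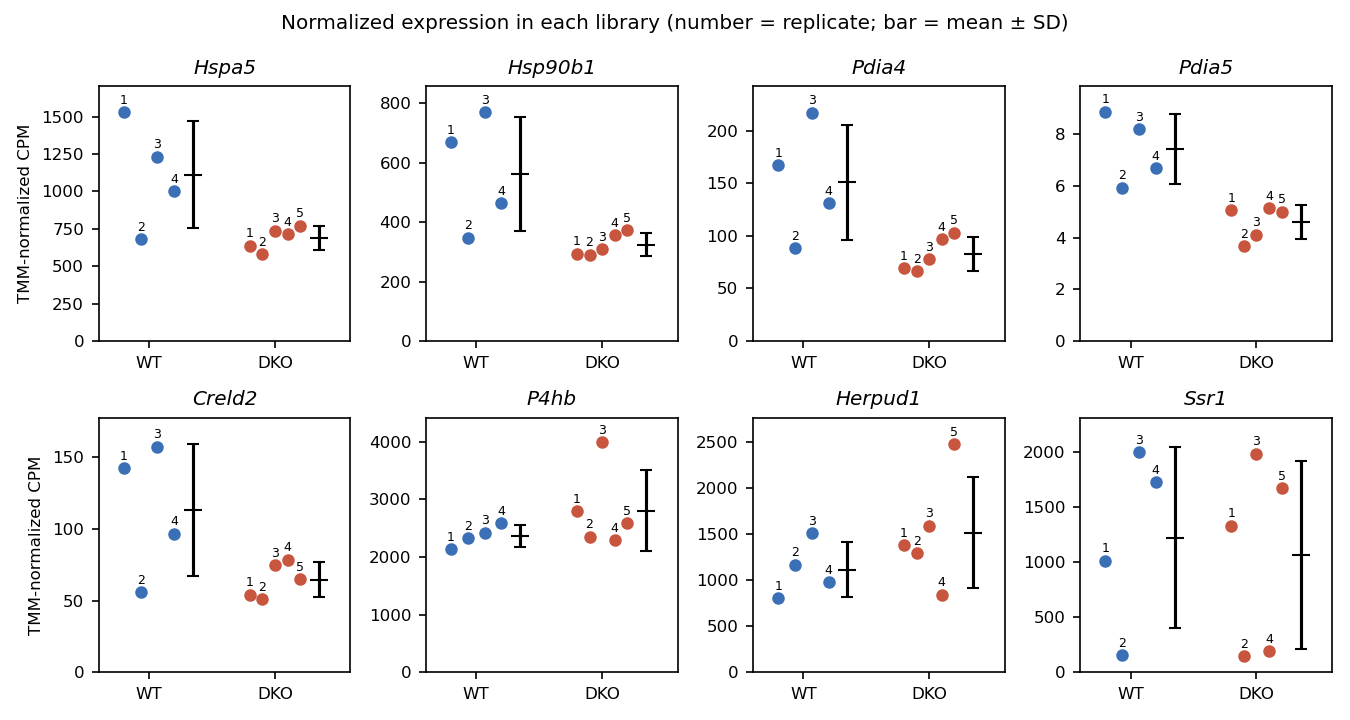
TMM-normalized CPM of 8 genes in each of the 4 WT (blue) and 5 DKO (red) libraries, with the replicate number above each point and the mean ± SD as a bar; each axis starts at 0. WT replicate 2 sits at or near the DKO values for *Hspa5*, *Hsp90b1*, *Pdia4* and *Creld2*, only the groups of *Pdia5* do not overlap, and *Ssr1* splits the libraries within each genotype.

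The chaperone genes are classical targets of the unfolded protein response through the ER stress response element (ERSE), the letters CCAAT and CCACG with 9 bases of any kind between them, which ATF6 and XBP1 bind together with NF-Y. Motifs were searched on both strands of RefSeq promoter windows (GRCm38.p6), 250 bases before to 50 after each start, which were found for 44 of the 52 genes. ERSE occurred in 10 of the 44 genes (22.7%) and in 37 of all 27025 genes with a window (0.137%). The 11 sites in these 10 genes are shown because they fall unevenly over the subgroups: the chaperones, co-chaperones, isomerases and ERAD genes hold them, while none of the 9 matched genes of the translocon and signal peptidase, the 4 COPII genes or the 2 sensors does. Each is given 5′ to 3′ in the direction of the element, with the CCAAT and CCACG ends in capitals.
*Hspa5*, chr2:34772025-34772043, plus strand: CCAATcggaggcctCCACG
*Hsp90b1*, chr10:86705638-86705656, minus strand: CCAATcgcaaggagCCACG
*Hsp90b1*, chr10:86705533-86705551, plus strand: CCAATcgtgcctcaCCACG
*Calr*, chr8:84847075-84847093, plus strand: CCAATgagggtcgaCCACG
*Canx*, chr11:50325800-50325818, minus strand: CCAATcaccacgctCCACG
*Creld2*, chr15:88819520-88819538, minus strand: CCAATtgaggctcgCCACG
*Dnajc3*, chr14:118937827-118937845, plus strand: CCAATcagcgccaaCCACG
*Pdia6*, chr12:17266491-17266509, plus strand: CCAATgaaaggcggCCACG
*Ero1lb*, chr13:12565682-12565700, minus strand: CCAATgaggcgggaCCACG
*Derl3*, chr10:75893242-75893260, minus strand: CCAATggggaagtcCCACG
*Syvn1*, chr19:6046532-6046550, plus strand: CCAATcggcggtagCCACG
*Hsp90b1* holds 2 of these elements. The related ERSE-II, ATTGG and CCACG with 1 base of any kind between them, occurred in 2 of the 44 genes (4.55%, against 0.0444% of all genes), with its fixed letters in capitals.
*Dnajb11*, chr16:22857852-22857862, plus strand: ATTGGcCCACG
*Herpud1*, chr8:94386377-94386387, plus strand: ATTGGgCCACG
The UPRE, TGACGTGG, occurred in 1 of the 44 (*Sec24d*; 2.27%, against 0.714% of all genes). The 12 genes with ERSE or ERSE-II had a median log2 fold change of -0.30 (-0.80 to 0.44; 9 below 0 and 3 above), and the 32 matched genes with neither had -0.10 (-0.87 to 0.31; 20 below 0 and 12 above). Genes with the element thus lay on both sides of 0: *Syvn1* and *Derl3* hold an ERSE and had log2 fold changes of 0.32 and 0.30. The 32 genes with neither include every matched gene of the translocon and signal peptidase, the COPII coat and the sensors. Genes with and without the element were not compared within subgroups. A match of letters describes the window only, and no binding was measured.

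The 250 bases before the start of 3 genes are printed because these genes had some of the lowest log2 fold changes of the set and differ in these letters. They are printed on the strand of the gene and counted from the RefSeq start, which is not the GENCODE start behind the gene positions given above. For *Hspa5* and *Hsp90b1* part of the stretch lies inside the GENCODE gene. For *Pdia4* the whole stretch lies before the GENCODE gene, and the bases between stretch and gene are not printed. Capitals mark the ends of each ERSE in *Hspa5* and *Hsp90b1*, where an element on the other strand reads as CGTGG to ATTGG, and the CCAAT letters of either strand in *Pdia4*.
*Hspa5*, chr2:34771840-34772089, plus strand: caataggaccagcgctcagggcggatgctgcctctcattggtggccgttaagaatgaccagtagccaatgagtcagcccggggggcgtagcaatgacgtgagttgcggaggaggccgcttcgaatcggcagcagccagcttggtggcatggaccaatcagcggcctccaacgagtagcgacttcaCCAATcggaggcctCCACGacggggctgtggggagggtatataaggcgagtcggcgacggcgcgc
*Hsp90b1*, chr10:86705445-86705694, minus strand: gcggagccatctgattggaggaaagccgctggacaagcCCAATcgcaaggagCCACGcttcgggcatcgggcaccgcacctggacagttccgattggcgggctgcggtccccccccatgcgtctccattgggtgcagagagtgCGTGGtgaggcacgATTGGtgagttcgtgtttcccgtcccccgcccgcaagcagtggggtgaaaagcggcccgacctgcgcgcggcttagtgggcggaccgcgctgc
*Pdia4*, chr6:47813513-47813762, minus strand: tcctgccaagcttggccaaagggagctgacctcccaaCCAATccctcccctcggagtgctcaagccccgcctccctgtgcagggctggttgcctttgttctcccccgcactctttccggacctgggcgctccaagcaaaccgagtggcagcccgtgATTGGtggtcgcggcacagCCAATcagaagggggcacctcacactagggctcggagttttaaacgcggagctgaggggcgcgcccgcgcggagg
*Hspa5* has 4 CCAAT and 1 CCACG in this stretch and *Hsp90b1* has 5 and 2, counting both strands. *Pdia4* has 3 CCAAT and 0 CCACG, and so no ERSE here, although its log2 fold change was the lowest of the 51 genes.

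Among the co-chaperones, which regulate BiP or work beside it, *Creld2* and *Manf* were the furthest from 0. Both encode secreted or ER-resident proteins induced by ER stress. *Creld2* had 142, 55.6, 157 and 96.6 CPM in WT and 54.1, 50.8, 74.6, 78.4 and 65.0 CPM in DKO. All 5 DKO libraries were below WT replicates 1, 3 and 4, and 2 of them were below WT replicate 2. edgeR put the difference at -0.80 on the log2 scale, standard error 0.26 (adjusted p = 0.168 in edgeR and 0.0519 in DESeq2). *Manf* had a log2 fold change of -0.78 (standard error 0.25), and *Dnajb11*, a J-domain partner of BiP, had -0.56 (standard error 0.18). The remaining J-domain genes *Dnajb9*, *Dnajc3* and *Dnajc10* lay between -0.51 and -0.24. *Sil1*, a nucleotide exchange factor of BiP, had 104, 95.5, 120 and 114 CPM in WT and 102, 91.8, 105, 113 and 119.9 CPM in DKO. Its groups overlapped throughout, and the log2 fold change came to -0.03 (standard error 0.11, edgeR adjusted p = 0.942).

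The isomerases lay on both sides of 0. *Pdia4* (ERp72) had the lowest log2 fold change of all 51 genes. Its values were 167, 88.1, 217 and 131 CPM in WT and 69.4, 66.1, 77.7, 97.1 and 103 CPM in DKO. On the log2 scale DKO differed from WT by -0.87, with a standard error of 0.23 (adjusted p = 0.0923 in edgeR and 0.0109 in DESeq2; exact permutation p = 0.0317, 0.339 adjusted). Again only WT replicate 2 reached into the DKO range. *Pdia5*, a much less abundant isomerase, had 8.88, 5.93, 8.20 and 6.70 CPM in WT and 5.07, 3.66, 4.12, 5.14 and 5.01 CPM in DKO. Every DKO library was below every WT library here. The log2 fold change was -0.69, with a standard error of 0.16 (adjusted p = 0.0656 in edgeR and 0.00776 in DESeq2), and the exact permutation p of 0.00794, the smallest that 4 against 5 libraries can give, became 0.281 after adjustment. *Pdia6* and *Pdia3* had log2 fold changes of -0.56 (standard error 0.19) and -0.45 (standard error 0.17), both with an unadjusted p under 0.05 and neither called.

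*P4hb* encodes PDI itself and was the most abundant of the 51 genes per length of exon, with 827 CPM per kb in WT and 979.9 CPM per kb in DKO. It had 2133, 2331, 2421 and 2583 CPM in WT and 2794, 2352, 3997, 2287 and 2589 CPM in DKO. DKO replicate 3 stood far above the rest, and the other DKO values lay in or near the WT range. The log2 fold change was 0.24 (standard error 0.19, edgeR adjusted p = 0.632). Per length of exon, *Herpud1* (478 CPM per kb), *Hspa5* (263), *Sar1b* (169) and *Spcs1* (163) followed in WT, and *Ern1* was the lowest of the 51, at 1.06. The oxidases *Ero1l* and *Ero1lb*, which reload PDI with disulfide bonds, had log2 fold changes of -0.16 and -0.17, and the prolyl isomerases *Ppib*, *Fkbp2* and *Fkbp11* had -0.09, -0.17 and 0.21.

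**Figure D3:**
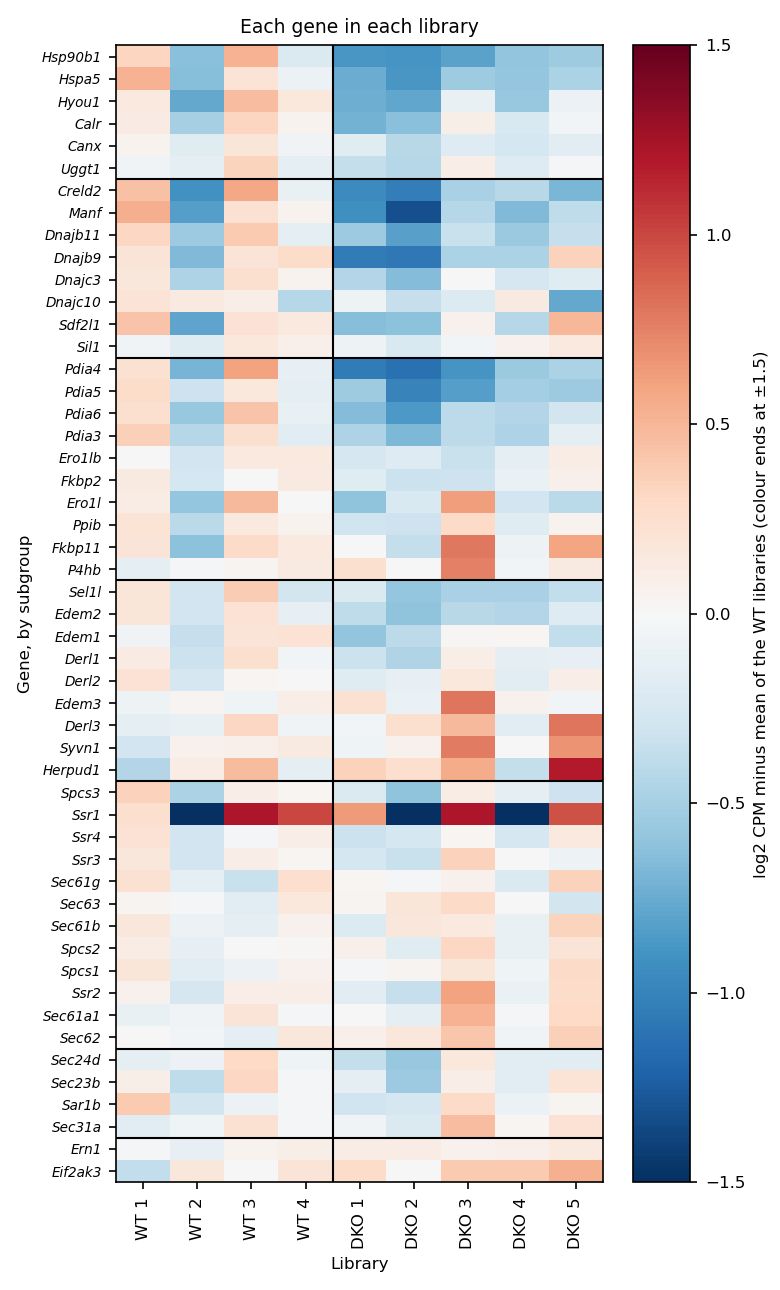
Each of the 51 genes tested (rows, in 7 subgroups separated by lines) in each of the 9 libraries (columns), as log2 CPM minus the mean of the 4 WT libraries; red is above and blue below that mean, and the colour ends at ±1.5. WT replicate 2 is blue across most chaperones, co-chaperones and isomerases, as DKO replicates 1, 2 and 4 are. Averaged over each of these subgroups, DKO replicates 3 and 5 are also below the WT mean. In much of the ERAD and translocon blocks, DKO replicates 3 and 5 are red.

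The ERAD genes pointed both ways. *Sel1l*, the adaptor of the central ERAD ubiquitin ligase, had 313, 228, 362 and 228 CPM in WT and 239, 185, 197, 198 and 215 CPM in DKO. Of the DKO libraries, 4 were below every WT library. The difference on the log2 scale was -0.45, with a standard error of 0.15 (adjusted p = 0.198 in edgeR and 0.0984 in DESeq2). *Edem2*, which takes part in mannose trimming of misfolded glycoproteins, had -0.42 (standard error 0.13) and likewise 4 DKO libraries below all WT libraries. In the other direction, *Herpud1*, a membrane protein that assembles the ligase complex, had 804, 1169.6, 1509.7 and 981 CPM in WT and 1379, 1292, 1595, 845 and 2479 CPM in DKO. Only DKO replicates 3 and 5 exceeded the WT range, and the log2 fold change was 0.44, with a standard error of 0.28 (adjusted p = 0.536 in edgeR and 0.460 in DESeq2). The ligase gene *Syvn1* and the Derlin *Derl3* had 0.32 and 0.30, and in both the same libraries, DKO replicates 3 and 5, were the 2 above the WT maximum. *Derl1* and *Derl2* had -0.20 and -0.04.

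The genes that bring proteins into the ER lay near 0, and none had an unadjusted p under 0.05. *Sec62*, an accessory subunit of the channel, had the highest log2 fold change of this subgroup. It had 207, 200.4, 186 and 232 CPM in WT and 216, 231, 275, 199 and 264 CPM in DKO, with overlapping groups and a log2 fold change of 0.20 (standard error 0.12, edgeR adjusted p = 0.520). *Spcs3*, of the signal peptidase, had the lowest, with 384, 217, 322 and 308 CPM in WT and 259, 198, 325, 273 and 244 CPM in DKO (log2 fold change -0.24, standard error 0.18, edgeR adjusted p = 0.596). *Spcs1* was the most abundant of the subgroup per length of exon. Its WT libraries averaged 251 ± 26.5 CPM (SD, n = 4) and its DKO libraries 266 ± 27.3 CPM (SD, n = 5), which differed by 0.08 on the log2 scale (standard error 0.12). The channel subunits *Sec61a1*, *Sec61b* and *Sec61g* had log2 fold changes of 0.15, 0.07 and 0.03.

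*Ssr1*, the alpha subunit of the translocon-associated protein complex, varied most within the groups: its coefficient of variation was 67.4% in WT and 79.7% in DKO, and those of the other 50 genes reached at most 40.7% and 43.6%. It had 1015, 156, 2000.2 and 1729 CPM in WT and 1335, 146, 1988, 194 and 1674 CPM in DKO. The libraries formed a low set (WT replicate 2 and DKO replicates 2 and 4) and a high set (the other 6), and both sets held both genotypes. The fitted log2 fold change of -0.20 therefore had a standard error of 0.79. Its partners in the same complex did not divide in this way: *Ssr2* ranged from 191 to 369 CPM over the 9 libraries, *Ssr3* from 259 to 415 and *Ssr4* from 246 to 358. No exon of *Ssr1* overlaps another annotated gene. Without it, the median log2 fold change of the subgroup was 0.07 (11 genes), and the mean score of the DKO libraries, in log2 units relative to WT, was 0.02 ± 0.18 (SD, n = 5).

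The 4 COPII genes, which build the vesicle coat for export to the Golgi, overlapped between groups. *Sec24d*, a cargo-binding subunit, had 101, 104, 136 and 106 CPM in WT and 86.9, 74.7, 124, 98.4 and 98.7 CPM in DKO. Of the DKO libraries, 4 were below every WT library, and the log2 fold change was -0.21 (standard error 0.15, edgeR adjusted p = 0.588). *Sec31a*, of the outer coat, had a log2 fold change of 0.10 (standard error 0.15) and *Sec23b* one of -0.11. *Sar1b*, the GTPase that starts assembly, was the most abundant of the 4 per length of exon. Its WT libraries averaged 212 ± 43.5 CPM (SD, n = 4) and its DKO libraries 202 ± 34.5 CPM (SD, n = 5), which differed by -0.07 on the log2 scale (standard error 0.16).

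Both sensors tested had log2 fold changes above 0, and neither was called. *Eif2ak3* encodes PERK, the kinase that slows translation under ER stress. It had 5.54, 8.11, 7.18 and 8.24 CPM in WT and 8.67, 7.16, 9.39, 9.45 and 10.4 CPM in DKO. All but DKO replicate 2 were above the WT maximum, and the log2 fold change was 0.31, with a standard error of 0.15 (adjusted p = 0.391 in edgeR and 0.383 in DESeq2). *Ern1* encodes IRE1 alpha, which splices *Xbp1* mRNA. Its values were among the least variable of the set, averaging 8.68 ± 0.567 CPM over WT libraries (SD, n = 4) and 9.29 ± 0.206 CPM over DKO libraries (SD, n = 5). The log2 fold change was 0.10, with a standard error of 0.10 and an edgeR adjusted p of 0.733. *Ern2*, the IRE1 beta gene of mucous epithelia, had 0 counts in all 9 libraries. A count of 0 allows up to 3 counts, or 0.0792 to 0.176 CPM by total count depending on the library, and covers counting error only.

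**Figure D4:**
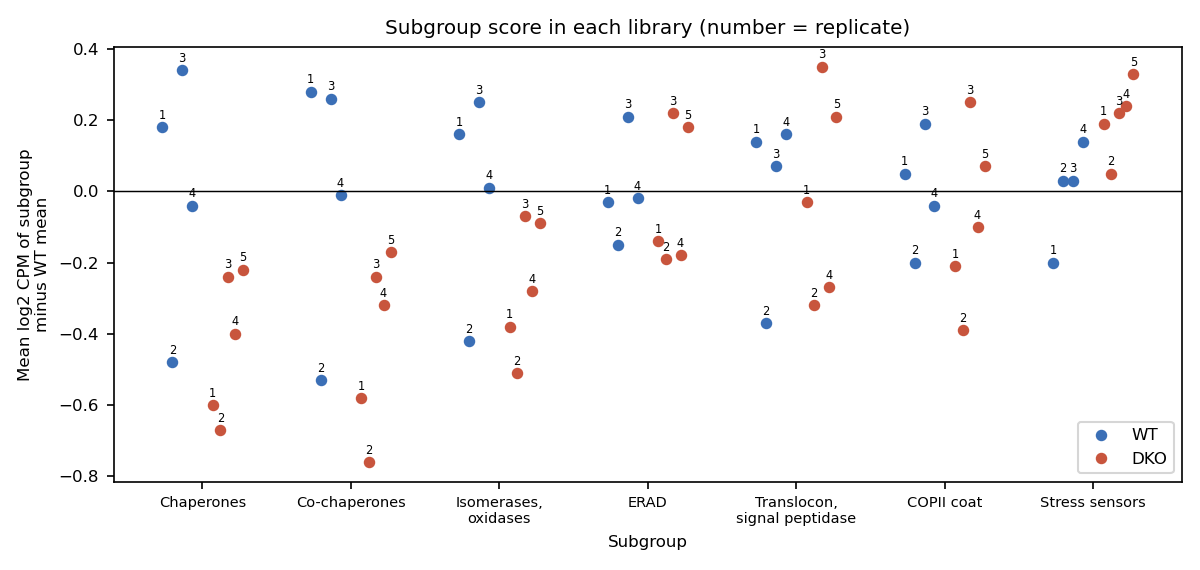
The mean log2 CPM of each subgroup's tested genes minus its WT mean, for each WT (blue) and DKO (red) library, with the replicate number above each point. For chaperones and co-chaperones all 5 DKO libraries lie below WT replicates 1, 3 and 4, and WT replicate 2 lies among the DKO libraries; for the translocon and COPII subgroups the genotypes are intermixed.

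The subgroup scores show the same in each library. For the chaperones the scores were 0.18, -0.48, 0.34 and -0.04 in WT and -0.60, -0.67, -0.24, -0.40 and -0.22 in DKO, on the log2 scale with the WT mean at 0. For the co-chaperones they were 0.28, -0.53, 0.26 and -0.01 in WT and -0.58, -0.76, -0.24, -0.32 and -0.17 in DKO. In both, WT replicate 2 scored below 3 of the DKO libraries. In the translocon and signal peptidase, WT replicate 2 (-0.37) and DKO replicates 2 (-0.32) and 4 (-0.27), the libraries low in *Ssr1*, were lowest and DKO replicate 3 (0.35) was highest. These scores include *Ssr1*: without it the same 3 libraries scored -0.18, -0.12 and -0.10, DKO replicate 1 scored -0.09 and DKO replicate 3 scored 0.28.

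The calls depended on single libraries. DESeq2's calls moved with DKO libraries as well as with WT libraries. Without DKO replicate 2, 3, 4 or 5 it called 3, 6, 5 and 7 of the 51 genes (3.42%, 3.72%, 6.44% and 3.85% of all genes, in either direction). Without WT replicate 2, which left 3 WT libraries, edgeR called 7 of the 51 genes, all lower in DKO (1.61% of all genes): *Hspa5*, *Hsp90b1*, *Dnajb11*, *Creld2*, *Manf*, *Pdia4* and *Pdia5*. DESeq2 then called 12, all lower (3.28% of all genes), adding *Hyou1*, *Pdia3*, *Pdia6*, *Edem2* and *Sel1l*. The groups did not overlap for 12 genes, all lower in DKO (6.78% of all genes), of which 4 were chaperones, 4 co-chaperones, 3 isomerases and 1 an ERAD gene. WT replicate 2 was the lowest WT library for 22 of the 24 chaperones, co-chaperones and isomerases, against 26.6% of all genes tested. Leaving it out thus favours these counts by the choice of library. The shares of all genes do not correct for that choice, so the counts are no separate support. The median log2 fold change was then -0.57 for both chaperones and co-chaperones, -0.29 for the isomerases, -0.12 for the ERAD genes, 0.02 for the translocon and signal peptidase, -0.19 for COPII and 0.21 for the sensors. Without WT replicate 1 the medians of chaperones and co-chaperones were -0.37 and -0.36, without WT replicate 3 they were -0.26 and -0.33, and without WT replicate 4 they were -0.38 and -0.39. Leaving out a library at the other end had the opposite effect on DESeq2. Without WT replicate 1 or WT replicate 3, the libraries highest in chaperones, it called 0 of the 51 genes. Its calls over all genes, in either direction, also fell, from 4.45% to 2.04% and 2.17%. Without DKO replicate 1, the library far highest in parotid markers, it called 3 of the 51 (4.29% of all genes). In edgeR that setting called 0 of the 51 genes, and 1 gene in all.

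Markers of the secretory cell types also differed between these libraries. The 8 granular duct markers (*Egf*, *Klk1*, *Ren1*, *Crisp3*, *Klk1b9*, *Klk1b22*, *Klk1b26*, *Muc13*) summed to 60050.3 to 130864 CPM in WT and 20281 to 49947 CPM in DKO, and 7 of the 8 had log2 fold changes below 0. WT replicate 2 was the lowest WT library in this sum, as it was in the chaperones. The order of the DKO libraries matched in part. DKO replicate 3 was lowest in this sum (20281 CPM) and had the second highest chaperone sum of DKO (1433 CPM). DKO replicate 5 was highest in chaperones (1515 CPM) with a duct sum of 37715 CPM. DKO replicates 4, 1 and 2 kept the same order in the duct sum (49947, 41894 and 32266 CPM) and the chaperone sum (1404, 1231 and 1151 CPM). The 10 acinar markers summed to 109934 to 178263 CPM in WT and 196229.6 to 364811 CPM in DKO, and all 9 that were tested had log2 fold changes above 0, with WT replicate 2 the highest of WT. The 7 myoepithelial markers summed to 563 to 878 CPM in WT and 223 to 511 CPM in DKO (6 of 6 tested below 0). The 12 markers of plasma and B cells, which also carry much ER, summed to 199 to 643 CPM in WT and 56.1 to 794 CPM in DKO, with overlapping ranges, and the 7 sublingual mucous markers summed to 2.25 to 163 CPM over all libraries, with *Gal3st2* at 0. In these bulk libraries, fewer cells of a type and less RNA per cell cannot be told apart, and the part of cell composition in the chaperone values was not tested.

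**Figure D5:**
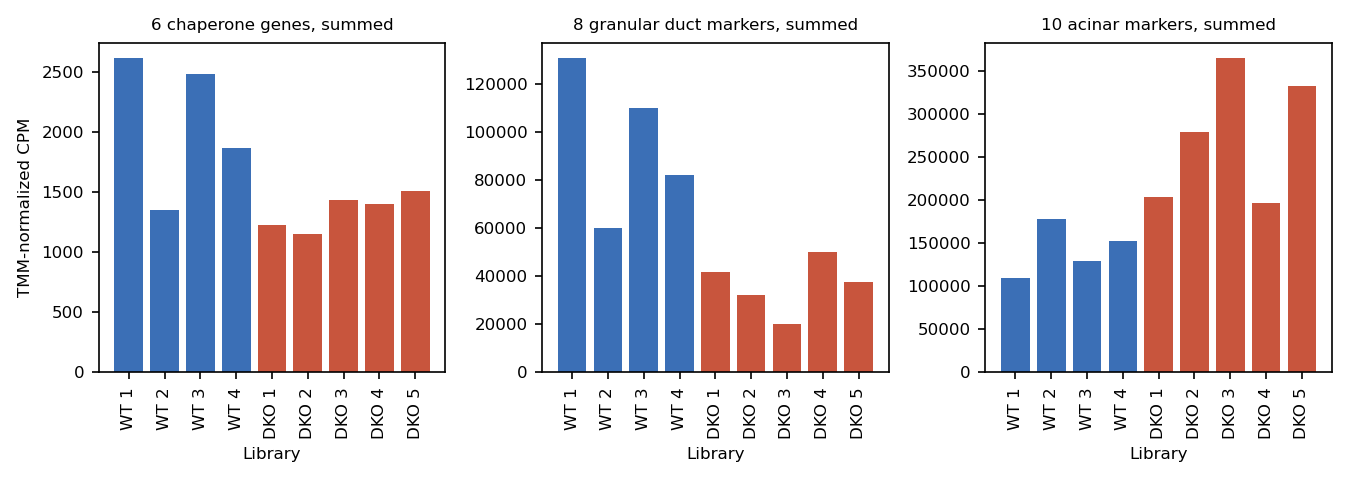
Summed TMM-normalized CPM in each of the 4 WT (blue) and 5 DKO (red) libraries for the 6 chaperone genes, the 8 granular duct markers and the 10 acinar markers; bars start at 0 and each panel has its own scale. WT replicates 1 and 3 are highest and WT replicate 2 lowest of WT in the first 2 panels, and WT replicate 2 is highest of WT in the third.

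As shares of all counts, the 6 chaperones took 0.234% ± 0.0686 of WT libraries (SD, n = 4) and 0.123% ± 0.0198 of DKO libraries (SD, n = 5). In CPM they summed to 1350.4 to 2618 in WT and 1151 to 1515 in DKO. *Hspa5* and *Hsp90b1* dominate this sum and share. They averaged 1112 and 563 CPM in WT, where the 6 genes summed to 2080.2 CPM on average. In DKO they averaged 688 and 325 CPM, where the 6 summed to 1347 CPM. The coefficient of variation was higher in WT than in DKO for 5 of the 6 chaperones, whereas this was so for 35.7% of all genes tested. The WT spread of the chaperones includes WT replicate 2, the lowest WT library for all 6. In the other subgroups it was higher in WT for 4 of 8 co-chaperones, 6 of 10 isomerases, 4 of 9 ERAD genes and 3 of 12 translocon and signal peptidase genes. The same held for 2 of 4 COPII genes and 2 of 2 sensors, and for 26 of all 51 genes. The isomerases took 0.418% ± 0.0485 of WT libraries (SD, n = 4) and 0.348% ± 0.0453 of DKO libraries (SD, n = 5). In CPM, which correct for the share of very abundant genes, the isomerases, in which *P4hb* dominates, summed to 3714 ± 333 CPM over WT libraries (SD, n = 4) and 3857 ± 787 CPM over DKO libraries (SD, n = 5), within the spread of the libraries.

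Further genes of the pathway outside the 52 were read from 7 lists with 121 genes, of which 117 were tested. Their median log2 fold change was 0.01 (55 below 0 and 62 above), and edgeR called 0 of them in either direction (0.629% of all genes were called). Of the 33 tested folding genes, 20 were below 0, with a median of -0.07. *Serpinh1* (Hsp47), the collagen chaperone, had -0.89 (standard error 0.30), *Fkbp14* -0.85 (standard error 0.28) and *Tmx3*, a transmembrane thioredoxin, -0.27 (standard error 0.10). None passed adjustment (edgeR adjusted p between 0.174 and 0.228), although the groups of *Tmx3* did not overlap. The 11 oligosaccharyltransferase genes, whose complex attaches N-glycans to entering chains, had a median of -0.17 (8 below 0). The catalytic subunit gene *Stt3b* had 44.9, 28.4, 51 and 36.4 CPM in WT and 25.6, 21.3, 24.2, 31.5 and 26.1 CPM in DKO, and was the single gene of the 117 that DESeq2 called, lower in DKO where 2.68% of all genes were (log2 fold change -0.64, standard error 0.17; adjusted p = 0.0873 in edgeR and 0.0177 in DESeq2). *Ddost*, of the same complex, had -0.33 (standard error 0.12) and groups that did not overlap.

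The further targeting and signal peptidase genes had a median of 0.09 (12 tested), in which the paired catalytic subunits of the signal peptidase pointed apart: *Sec11a* had -0.45 (standard error 0.14) and *Sec11c* had 0.28 (standard error 0.12), neither of them called. The glucosidases and lectins had a median of -0.01 (7 tested), the further ERAD genes 0.00 (20 tested) and the further export genes 0.09 (22 tested). Over the 117 genes, groups did not overlap for 3 lower in DKO (*Tmx3*, *Ddost* and *Atf6b*) and 4 higher (*March6*, *Ngly1*, *Aup1* and *Sec16b*), against 3.51% and 2.49% of all genes. *Sec16b*, of ER exit sites, had 0.79 (standard error 0.27) at a low level of 0.983 CPM in WT. The 12 regulators of the unfolded protein response had a median of 0.26 (-0.26 to 2.20; 5 below 0 and 7 above). The transcription factor genes *Atf6* and *Atf6b* had -0.24 and -0.26, and *Xbp1* and *Atf4* had 0.52 and 0.39, none of them called. *Ppp1r15b* had 0.39 (standard error 0.14) and *Trib3* had 1.29 (standard error 0.51), and neither was called. *Chac1*, a target of ATF4, had 13.2, 72.4, 13.5 and 5.88 CPM in WT and 145, 133, 20.3, 30.8 and 275 CPM in DKO. Its log2 fold change of 2.20 had a standard error of 0.84 (edgeR adjusted p = 0.249), with DKO replicates 3 and 4 inside the WT range and the others above it.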

How the data were processed

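RNA from 4 WT and 5 DKO male SMGs was made into unstranded Nextera XT libraries by the authors, 1 per mouse, and sequenced on a HiSeq2500. As deposited, 1 table holds raw read counts per gene (48709 genes), another the same counts for 17562 filtered rows, and the last signal values, which are those counts divided by 1 factor per library (TMM-scaled CPM). All 158058 signal values gave back whole counts within 0.001. The submitters' processing notes name STAR 2.5.2a, GRCm38, mm10 and GRCh38, DESeq2, edgeR and limma. The counting tool, annotation and filter are not given in the sources used here.

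The raw counts were normalized by TMM and filtered by filterByExpr (minimum count 10, minimum total 15; 13842 genes) in edgeR 4.0.16 (R 4.3.3), and genotype was tested by the legacy quasi-likelihood fit with Benjamini-Hochberg adjustment over all genes. The standard error of a log2 fold change is its size over the root of edgeR's F. DESeq2 1.42.0 (Wald test), limma 3.58.1 (voom, and trend on log2 of the deposited signal plus 1 or 0.1), other normalizations and filters, a replicate block and each library left out were alternatives. Exact permutation tests, two-sided, permuted the genotype labels. Exons and gene positions came from GENCODE M21, and levels per kb use the union of exons. Exons of 17 of the 52 genes overlap another annotated gene, and the libraries do not mark strand. *Ern2* had no counts and was not tested. *Ero1l* and *Ero1lb* are named Ero1a and Ero1b in the tables.

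Members named with values are those past the threshold in edgeR or DESeq2, those whose groups do not overlap, the highest, lowest and most abundant of each subgroup, and *Hspa5*, *Ern1*, *Ern2* and *Eif2ak3*; of the other pathway genes, up to 3 per list by p. Further genes are named where a result turns on them and were chosen after their values were seen. The members and lists were chosen with earlier results of these data known. Of the marker lists, 1 gene is not reported here and is left out of its list's sum.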

Additional observations from a re-analysis of the deposited data

Results flagged for a closer look

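In 102 groups of 4 or 5 libraries (51 genes in WT and DKO), 5 held a library far from the rest of its group by Dixon's criterion, which chance meets in about 1 group in 20. WT replicate 3 was high in *Uggt1* (61.8 CPM, against 44.4 to 47.1 in the other WT libraries) and in *Sec24d* (136 CPM, against 101 to 106). WT replicate 2 was low in *Dnajb9* (5.2 CPM, against 9.35 to 9.96) and in *Ssr2* (203 CPM, against 253 to 260.1). DKO replicate 3 was high in *Ero1l* (21.3 CPM, against 9.11 to 11.8 in the other DKO libraries).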

How the results depend on the processing

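The number of the 51 genes called was 0 in edgeR and 4 in DESeq2, 2 without a filter on low counts and 10 by library size alone. With 1 library left out it was 0 to 7 in edgeR, with 7 only without WT replicate 2, and 0 to 12 in DESeq2. Of all genes, 87 were called in edgeR, 616 in DESeq2, 148 in limma-voom, 347 without a filter, 357 by library size alone, 6 on the deposited table with pseudocount 1, 5 with the 20 most abundant genes left out of the factors, 0 with the replicate block, and 0 to 441 with 1 library left out (441 without DKO replicate 4, 306 without WT replicate 2). Of the further pathway genes, DESeq2 called 1, library size alone 2, and leaving out a library 0 to 1.

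Scaling by library size alone was added after seeing the data. It moved the median log2 fold change of all genes to -0.28. The medians became -0.72 for chaperones, -0.72 for co-chaperones, -0.48 for isomerases, -0.35 for ERAD, -0.24 for the translocon and signal peptidase, -0.40 for COPII and -0.09 for sensors. Of the 51 genes, 15 turned from above 0 to below it, among them *P4hb* (-0.08), *Sec62* (-0.11), *Spcs1* (-0.22), *Sec31a* (-0.22) and *Ern1* (-0.20). Near 0, leaving out a library gave -0.08 to 0.02 for *Sil1* (above 0 without DKO replicate 2 or WT replicate 3) and -0.17 to 0.08 for *Sar1b* (above 0 without WT replicate 1). Under library size alone, only the medians of chaperones and co-chaperones moved by less than the spread of WT libraries (SD 0.35 and 0.38). That spread includes the low WT replicate 2. Under every other alternative, each subgroup median moved by less than the spread of WT libraries in that subgroup.

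Replicate numbers are shared between groups, but the labels do not state that they pair animals, and they were not taken as pairs. Deviations of same-numbered libraries correlated at 0.150, 0.298, 0.0739 and 0.0136, and those of differently numbered libraries at -0.222 to 0.0968. The values for replicates 1 and 2 were thus above those of all differently numbered libraries. What the libraries of these numbers may share was not tested. With the replicate block edgeR called 0 of the 51 genes. Not every library correlated best with its own number. *Ern2* was not detected, and the libraries bound its level only by the limits given.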
